A study of Mus musculus with 9 samples.

Results

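A set of 9 protein-coding genes that act in the choice between the CD4 and the CD8 T cell lineage was followed through SP4 thymocytes sorted by expression of a Nur77/Nr4a1-GFP reporter. The genes were picked by symbol from the table of 41978 genes, and 9 of 9 were found in it and entered the test: the transcription factor genes Zbtb7b, Runx1, Runx3, Tox and Myb, the RUNX partner gene Cbfb, and the co-receptor genes Cd4, Cd8a and Cd8b1. The samples were semimature SP4 thymocytes of the thymus of Nur77-eGFP BAC Tg mice, which carry a bacterial artificial chromosome in which Nr4a1 regulatory sequence drives GFP. All 9 samples shared this genotype, and the sort kept live cells that were CD4+, CD8-, CD69+ and CD24+ and lacked CD25. The 3 groups, GFPlo, GFPmed and GFPhi, held 3 biological replicates each and came from the low, medium and high parts of the GFP distribution. They are defined by the gate, and no group is an untreated or wild-type control. The study's strains were on a C57BL/6 background, and mice of both sexes between 3 and 10 weeks of age were used. Age and sex are not given per sample here. The study's sources disagree on whether the gate took the high or the low part of CD24, and CD24 staining falls as thymocytes mature.

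In the thymus, a cell with both co-receptors becomes a CD4 or a CD8 T cell after its receptor has bound self-peptide on class II or class I MHC. ThPOK, the product of Zbtb7b, holds cells in the CD4 lineage and represses CD8 lineage genes. RUNX proteins, each bound to the shared partner CBFb, silence Cd4 and Zbtb7b in CD8 lineage cells, where Runx3 is the member known for this role, while TOX, MYB and GATA3 act upstream of Zbtb7b.

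RUNX proteins bind a core written TGTGGT, and the promoters of the genes that encode them are shown here because Runx1 and Runx3 moved in opposite directions. The stretches come from RefSeq (GRCm38.p6), which had promoter entries for 6 of the 9 genes and 9 entries in all, and capitals mark a core match on either strand. The upstream start of Runx3 lies on chromosome 4, plus strand, and its stretch is chr4:135120448-135120644. The upstream start of Runx1 lies on chromosome 16, minus strand, with the stretch chr16:92826150-92826324, which ends 75 bases before the start because the rest is annotated as exon. An inner start of Zbtb7b lies on chromosome 3, minus strand, with the stretch chr3:89387672-89387921.
Runx3: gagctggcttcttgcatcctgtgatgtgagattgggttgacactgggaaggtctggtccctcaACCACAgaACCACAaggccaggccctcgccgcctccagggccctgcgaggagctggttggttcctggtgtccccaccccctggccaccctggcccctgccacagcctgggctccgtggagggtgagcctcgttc
Runx1: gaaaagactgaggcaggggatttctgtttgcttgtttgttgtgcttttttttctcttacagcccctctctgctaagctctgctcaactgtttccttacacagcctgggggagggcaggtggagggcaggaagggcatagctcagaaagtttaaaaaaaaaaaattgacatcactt
Zbtb7b: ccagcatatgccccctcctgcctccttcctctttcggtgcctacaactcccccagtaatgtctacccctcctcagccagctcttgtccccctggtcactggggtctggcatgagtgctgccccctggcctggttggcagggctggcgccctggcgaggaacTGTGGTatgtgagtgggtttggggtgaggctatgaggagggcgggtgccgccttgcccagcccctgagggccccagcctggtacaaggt
The Runx3 stretch held the core 2 times, 134 and 126 bases before the start, both on the minus strand. The Zbtb7b stretch held it 1 time, 89 bases before the start. Neither 250-base window of Runx1 held a match, nor did those of Cbfb, Myb and Cd8a, the other window of Runx3 or the other window of Zbtb7b. Of all 32851 promoter windows of this length, 14% held the core, so a match is common. The letters AAAGGTCA, the response element that NR4A proteins bind as monomers, stood in 0 of the 9 windows and in 439 of all windows. A match describes the letters only, and gene-level values do not show which start was used.

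The sort and the label were checked first. Nr4a1, the gene that the reporter follows, averaged 217 ± 32.1 TPM in GFPlo, then 374 ± 28.6 TPM in GFPmed and 840 ± 75.0 TPM in the GFPhi group (mean ± SD, n = 3). TPM are reads scaled to gene length and to a common total per sample. The 8 markers of SP4 T cells summed to between 4559 and 5488 TPM in every sample. Of these 8, Cd5, an inhibitor of receptor signalling, rose by a log2 fold change of 1.61 between GFPlo and GFPhi (adjusted p = 0.000188 from limma). Cd69, an activation marker used in the gate, fell by 0.79 on the log2 scale (adjusted p = 0.0142 from limma), and the other 6 did not pass. Cd4 was the most abundant of the 9 genes throughout. The samples had between 7465552 and 14943774 reads on genes, and the 9 genes rested on 49 reads (Cd8a, in GFPhi replicate 3) to 17710 reads (Cd4) per sample. Replicate 1 of each group had the most reads, in RPM (relative to all gene reads of that library), on 1530 olfactory and vomeronasal receptor genes (2247 to 4856 RPM over all samples), so results are also given without it where this matters.

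Across the sort from GFPlo to GFPhi, the pattern of the 9 genes was a rise of Myb and Runx3 and a fall of Runx1, Tox and both CD8 chain genes. In limma's test on log2(TPM + 1), a gene passed at an adjusted p of at most 0.05, and 6 of 9 genes passed between GFPhi and GFPlo against 3.89% of the 30693 genes tested. The 2 that rose compare with 2.38% of genes that rose, and the 4 that fell with 1.51% that fell. With a log2 fold change of at least 1 in either direction required as well, as the study did, Myb, Runx1 and Cd8a passed, against 1.66% of genes. The 9 genes, and the gene lists below, were chosen with earlier results of these data known. The shares of all genes therefore give a scale and are not a test. In all 9 genes the 3 GFPhi samples did not overlap the 3 GFPlo samples, which held for 18.2% of genes tested. The median log2 fold change was -0.70 over the 9 genes and -0.09 over all genes. In bulk samples, fewer cells with a transcript and less transcript per cell cannot be told apart.

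**Figure D1:**
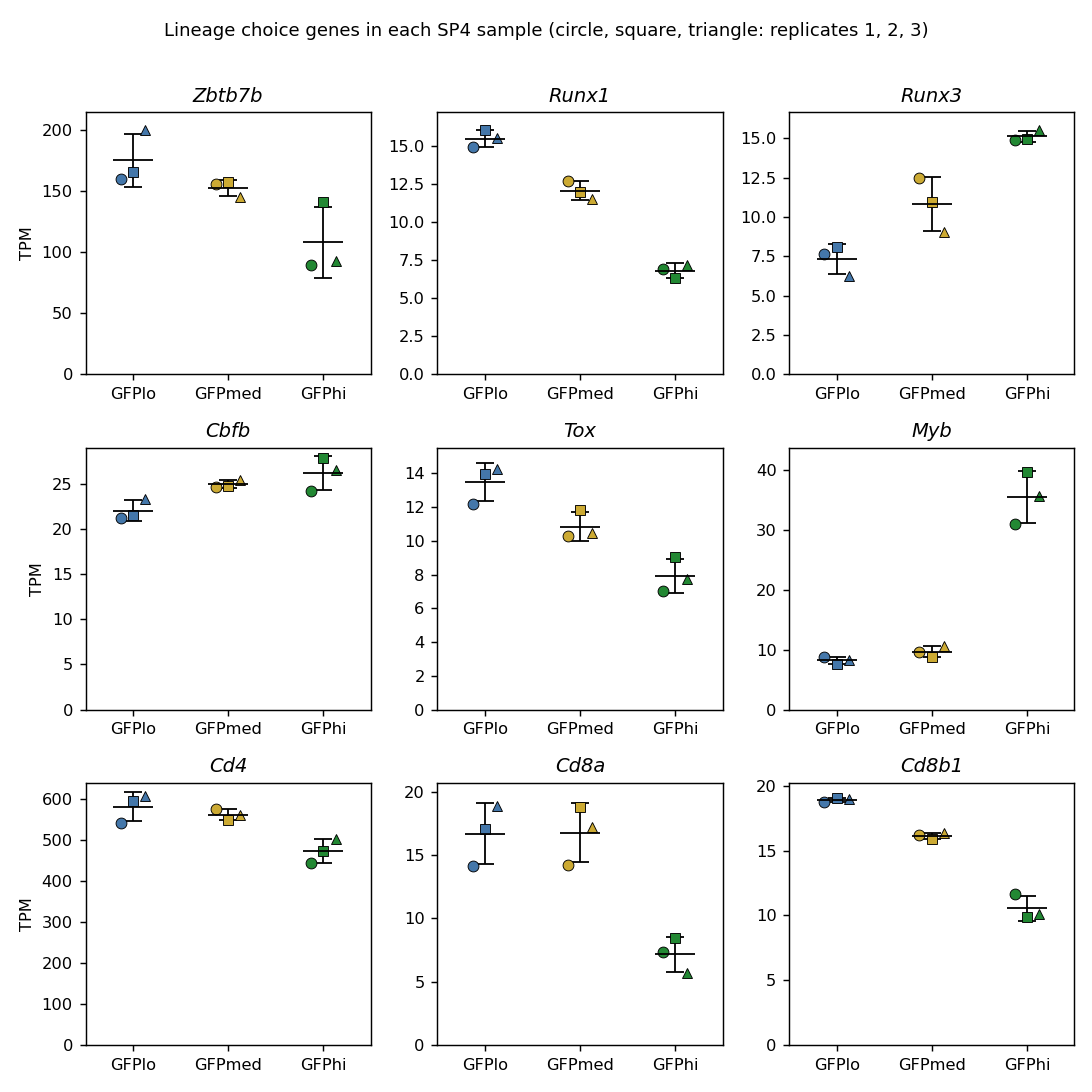
TPM of the 9 lineage choice genes (vertical axes, each from 0) in the 3 GFPlo, GFPmed and GFPhi samples, with a symbol for each replicate and lines for the mean ± SD. Myb stays between 7.67 and 10.5 TPM in GFPlo and GFPmed and reaches 30.9 to 39.7 TPM in GFPhi, Runx3 climbs as Runx1 declines, and GFPhi replicate 2 stands apart in Zbtb7b at 141 TPM.

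Myb encodes the transcription factor c-MYB, needed at several stages of thymocyte development and known to promote CD4 commitment. Its gene lies at chr10:21124935-21160984 (GRCm38, minus strand). The GFPlo samples had 8.72, 7.67 and 8.23 TPM, the GFPmed samples 9.63, 8.79 and 10.5 TPM, and the GFPhi samples 30.9, 39.7 and 35.6 TPM. All 3 GFPhi samples stood far above the others, and the GFPmed samples lay just above the GFPlo samples without overlap. Myb rose by a log2 fold change of 1.98 between GFPlo and GFPhi (SE 0.13, adjusted p = 0.00029 from limma), or 4.31-fold in mean TPM. Between GFPmed and GFPhi it rose by 1.77 (SE 0.13, adjusted p = 0.00129 from limma), while GFPmed and GFPlo differed by 0.21 (SE 0.13, adjusted p = 1 from limma). GFPmed had covered 0.106 of the log2 distance from GFPlo to GFPhi. The antisense gene Gm26577 shares 559 exonic bases with Myb and rose as well, by 2.13 (adjusted p = 0.00116 from limma). Its mean of 140 reads per sample compares with 526 reads for Myb, and a library of this kind keeps no strand, so reads of the pair cannot be told apart in the shared stretch.

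Runx1 and Runx3 encode DNA-binding RUNX proteins, of which RUNX1 acts in immature thymocytes and RUNX3 in CD8 lineage cells. Runx1 (chr16:92601466-92826149, minus strand) had 14.9, 16.02 and 15.5 TPM in GFPlo, with 12.7, 11.98 and 11.5 TPM in GFPmed and 6.94, 6.30 and 7.21 TPM in GFPhi. Runx3 (chr4:135120652-135177990, plus strand) had 7.65, 8.09 and 6.23 TPM in GFPlo, with 12.5, 10.97 and 9.03 TPM in GFPmed and 14.9, 14.9 and 15.5 TPM in GFPhi. Neither gene showed any overlap between groups, and the order of the groups was reversed between them. Runx1 fell by 1.08 on the log2 scale between GFPlo and GFPhi (SE 0.12, adjusted p = 0.00263 from limma), and its mean TPM in GFPhi was 0.440 of that in GFPlo. Runx3 rose by 0.96 (SE 0.16, adjusted p = 0.0158 from limma), 2.06-fold in mean TPM. The steps were spread differently over the sort. GFPmed had covered 0.311 of the distance for Runx1 and 0.524 for Runx3. From GFPmed to GFPhi, Runx1 fell by 0.74 (SE 0.12, adjusted p = 0.0267 from limma), and the difference for Runx3 was 0.46 (SE 0.16, adjusted p = 0.308 from limma). The Runx3 call between GFPhi and GFPlo was lost without GFPlo replicate 3 (adjusted p = 0.0596 from limma), without GFPhi replicate 3 (0.072), without replicate 1 of every group (0.15) and in a fit of these 2 groups alone (0.0533). Runx1 lost its call in 1 of 20 alternatives, without replicate 1 of every group (adjusted p = 0.077 from limma). The antisense gene Gm26626, with a mean of 100.1 reads, shares 106 exonic bases with Runx1, and its log2 difference was -0.77 (adjusted p = 0.0692 from limma). Reads of the pair cannot be told apart in that stretch.

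Cbfb (chr8:105170674-105217989, plus strand) encodes CBFb, which binds no DNA itself and stabilises every RUNX protein on its site. It had 21.2, 21.6 and 23.3 TPM in GFPlo, with 24.6, 24.8 and 25.5 TPM in GFPmed and 24.2, 27.9 and 26.6 TPM in GFPhi. The GFPhi samples lay above the GFPlo samples and overlapped the GFPmed samples. The difference between GFPhi and GFPlo was 0.24 on the log2 scale (95% confidence interval 0.03 to 0.45, adjusted p = 0.274 from limma), smaller than that of either Runx gene. It passed in 1 of 20 alternatives, limma-voom on reads with library totals (adjusted p = 0.0364).

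Zbtb7b (chr3:89377644-89394776, minus strand) encodes ThPOK, the factor that defines the CD4 lineage. It had 159.8, 165 and 199.5 TPM in GFPlo, with 156, 157 and 145 TPM in GFPmed and 89.6, 141 and 92.7 TPM in GFPhi. No group overlapped another, but GFPhi replicate 2 lay closer to the GFPmed samples than to the other GFPhi samples. The log2 difference between GFPhi and GFPlo was -0.72 (SE 0.17, 95% confidence interval -1.12 to -0.31) and did not pass (adjusted p = 0.0739 from limma). Without GFPhi replicate 2 it was -0.93 and passed (adjusted p = 0.00755 from limma). That library also had the fewest genes with a TPM of at least 1, 23486 against up to 29902 in the others, and the lowest level on the receptor genes, 2247 RPM. The part of these properties in the value was not tested. The difference passed under quantile normalization too (adjusted p = 0.0199 from limma). Between GFPhi and GFPmed the log2 difference was -0.53 (SE 0.17, adjusted p = 0.273 from limma), or -0.74 without GFPhi replicate 2 (adjusted p = 0.0322 from limma). The antisense gene Gm15417, with a mean of 89.1 reads, shares 116 exonic bases with Zbtb7b, where reads of the pair cannot be told apart, and its log2 difference between GFPhi and GFPlo was -0.62 (adjusted p = 0.246 from limma).

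Tox (chr4:6686353-6991557, minus strand) encodes an HMG-box factor needed for thymocytes to become CD4 lineage cells. It had 12.2, 14.0 and 14.3 TPM in GFPlo, with 10.3, 11.8 and 10.4 TPM in GFPmed and 7.00, 9.02 and 7.71 TPM in GFPhi. Each group lay below the one before it, without overlap. Tox fell by 0.70 on the log2 scale between GFPlo and GFPhi (SE 0.14, adjusted p = 0.0382 from limma). This call was the least stable of the 6. It was lost in 12 of 20 alternatives, in every one that left out a GFPlo or GFPmed sample (adjusted p = 0.0635 to 0.148 from limma), without GFPhi replicate 1 (0.095) or replicate 3 (0.126), without replicate 1 of every group (0.205), and with median-of-ratios scaling (0.397), quantile normalization (0.368) or these 2 groups alone (0.139). The antisense gene Gm11802, which shares 260 exonic bases with Tox, fell by 0.70 (adjusted p = 0.0289 from limma), and reads of the pair cannot be told apart in that stretch.

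**Figure D2:**
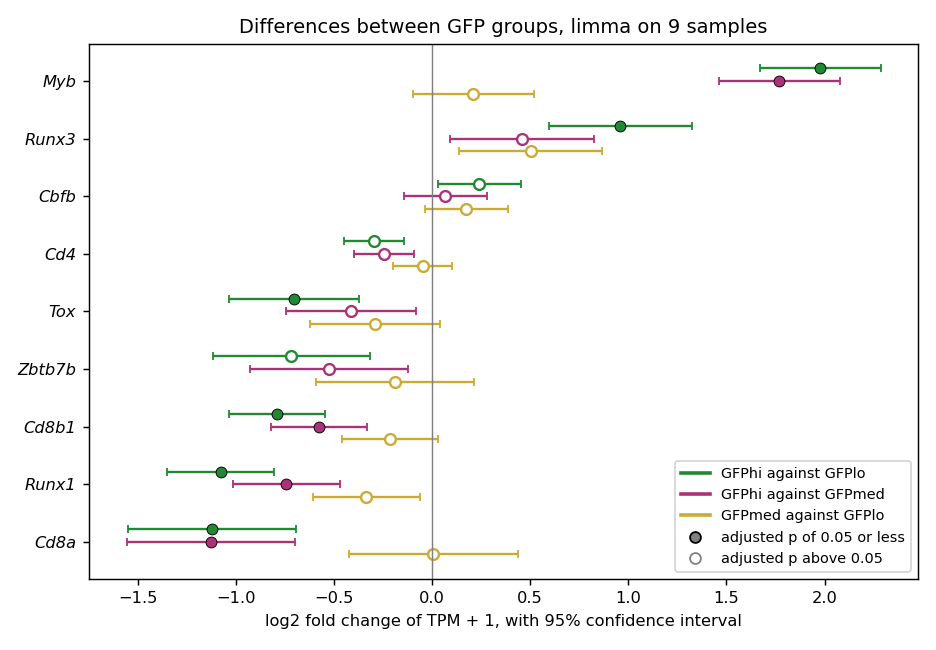
Log2 fold changes of TPM + 1 (horizontal axis) of the 9 genes in the 3 comparisons of GFP groups, with 95% confidence intervals from limma. Filled points have an adjusted p of at most 0.05: 6 for GFPhi against GFPlo, 4 for GFPhi against GFPmed and 0 for GFPmed against GFPlo.

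The co-receptor genes are the readout of lineage choice. Cd4 (chr6:124864692-124888221, minus strand), which encodes the co-receptor for class II MHC, had 541, 597 and 609 TPM in GFPlo, with 575, 549 and 562 TPM in GFPmed and 445, 473 and 503 TPM in GFPhi. All GFPhi samples lay below all others, while GFPlo and GFPmed overlapped. The log2 difference between GFPhi and GFPlo was -0.30 (SE 0.07, 95% confidence interval -0.45 to -0.14), close to the threshold without passing it (adjusted p = 0.0532 from limma). It passed in 5 of 20 alternatives, among them without GFPlo replicate 1 (adjusted p = 0.0442 from limma) and with a pseudocount of 0.1 (0.0484). With median-of-ratios scaling of TPM, it was less clear in the ordered trend as well (exact permutation p = 0.264, two-sided).

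Cd8a and Cd8b1, which encode the chains of the class I co-receptor, are neighbours on chromosome 6 with 35932 bases between them. Cd8b1 (chr6:71322788-71337494, plus strand) had 18.8, 19.0 and 19.0 TPM in GFPlo, with 16.2, 15.9 and 16.3 TPM in GFPmed and 11.7, 9.84 and 10.1 TPM in GFPhi. Cd8a (chr6:71373427-71379173, plus strand) had 14.1, 17.1 and 18.8 TPM in GFPlo, with 14.2, 18.8 and 17.2 TPM in GFPmed and 7.30, 8.47 and 5.68 TPM in GFPhi. The Cd8b1 groups lay apart in order, with close replicates, although the step from GFPlo to GFPmed did not pass (log2 difference -0.22, adjusted p = 1 from limma). The Cd8a samples of GFPlo and GFPmed overlapped, and those of GFPhi lay below both. Cd8b1 fell by 0.79 on the log2 scale between GFPlo and GFPhi (SE 0.11, adjusted p = 0.00646 from limma). It lost this call in 3 of 20 alternatives, with median-of-ratios scaling (0.0856), with these 2 groups alone (0.0525) and without replicate 1 of every group (0.0802). Cd8a fell by 1.12 (SE 0.18, adjusted p = 0.0158 from limma) on 49 to 80 reads in each GFPhi sample against 95 to 145 in each GFPlo sample. Its call was lost without GFPlo replicate 2 (adjusted p = 0.0737 from limma), without GFPlo replicate 3 (0.0686), without GFPhi replicate 3 (0.0561), without replicate 1 of every group (0.112), and with median-of-ratios scaling (0.147), quantile normalization (0.122) or these 2 groups alone (0.0711). The cells were gated as CD8-, which concerns the protein at the surface and not the transcript.

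For 7 of 9 genes more of the log2 distance lay between GFPmed and GFPhi than between GFPlo and GFPmed. The exceptions were Runx3 and Cbfb, which had covered 0.524 and 0.723 of it in GFPmed. Between GFPmed and GFPhi, 4 of 9 genes passed against 1.51% of genes tested. Myb was higher, as 0.899% of genes were, and Runx1, Cd8a and Cd8b1 were lower, as 0.609% were. The groups of 8 genes did not overlap, against 16.5% of genes. Cd8a fell by 1.13 (SE 0.18, adjusted p = 0.0299 from limma) and Cd8b1 by 0.57 (SE 0.11, adjusted p = 0.046 from limma). The 3 calls of lower genes depended on the fit, and a block for the replicate number ended all 3 (adjusted p = 0.0646 to 0.103 from limma). Runx1 lost its call in 13, Cd8a in 12 and Cd8b1 in 17 of 20 alternatives, and all 3 lost it without any single GFPmed sample (adjusted p = 0.0657 to 0.181 from limma). Leaving out GFPlo replicate 2 or 3, GFPhi replicate 1 or GFPhi replicate 3 ended all 3 calls as well (0.0502 to 0.17), and GFPlo replicate 1 or GFPhi replicate 2 ended some of them (0.0669 to 0.106). Myb kept its call without any single sample, and lost it without replicate 1 of every group (adjusted p = 0.0641 from limma).

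Between GFPmed and GFPlo, 0 of 9 genes passed in limma against 0.0749% of genes tested, and 7 of 9 did not overlap against 10.3%. At an unadjusted p under 0.05 there were 2 of 9, against 4.67% of genes, Runx3 with a log2 difference of 0.50 (adjusted p = 0.809 from limma) and Runx1 with -0.33 (adjusted p = 0.921 from limma). With limma-voom on reads and library totals, Runx1 passed (adjusted p = 0.0422), and with size factors 0 genes did. In the test of whether the step from GFPmed to GFPhi differed from the step from GFPlo to GFPmed, 0 of 9 genes passed in limma against 0.0195% of genes. The largest differences of steps were those of Myb, 1.56 (SE 0.23, adjusted p = 0.157 from limma), and Cd8a, -1.14 (SE 0.32, adjusted p = 0.758 from limma), which were also the 2 of 9 with an unadjusted p under 0.05, against 5.02% of genes. Myb passed with limma-voom and library totals (adjusted p = 0.00625).

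Over all 3 groups, Zbtb7b, Runx1, Tox and Cd8b1 were lower and Runx3 and Myb higher from each group to the next, with no sample of a group overlapping the next. This was the case for 6 of 9 genes against 2.54% of all genes tested. Such an order by itself gives the trend test its smallest exact permutation p over 1680 arrangements, 0.00119 (two-sided), so for these 6 genes the p only restates the order. It was 0.00595 for Cbfb and for Cd4 and 0.0155 for Cd8a. Zbtb7b missed 0.05 with median-of-ratios scaling (exact permutation p = 0.0607).

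Levels of different genes were compared after rescaling reads to exonic length, since the deposited TPM divide by the mean genomic span of the transcripts, introns included. On this exonic TPM scale, Cd4 was highest in GFPlo samples at 1012 ± 63.3 (SD, n = 3). Zbtb7b followed at 201 ± 24.9, Tox at 184 ± 15.1, Cbfb at 125 ± 6.67, Cd8b1 at 107 ± 0.765 and Runx1 at 59.9 ± 2.06. Cd8a at 13.5 ± 1.93, Runx3 at 12.4 ± 1.62 and Myb at 8.70 ± 0.569 were the lowest. The neighbours Zbtb7b and Tox, and Cd8a and Runx3, overlapped between samples, and the other neighbours in GFPlo did not. In GFPhi samples the order was Cd4 at 821 ± 51.5, Cbfb at 149 ± 9.14, Zbtb7b at 123 ± 31.0, Tox at 108 ± 12.4, Cd8b1 at 59.6 ± 6.21, Myb at 37.4 ± 4.15, Runx1 at 26.3 ± 2.15, Runx3 at 25.5 ± 0.810 and Cd8a at 5.76 ± 1.061. There Myb had moved from last place to above both Runx genes, and Cbfb, Zbtb7b and Tox, neighbours in the order, overlapped pair by pair, as did Runx1 and Runx3. Cbfb was more abundant than Runx1 and Runx3 combined in every group, with GFPmed levels of 142 ± 3.10 for Cbfb, 46.6 ± 2.14 for Runx1 and 18.3 ± 2.82 for Runx3.

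Ratios within a sample do not depend on how samples are scaled, and they are given as descriptions. The ratio of Runx3 to Runx1 on the exonic scale was 0.224, 0.221 and 0.176 in GFPlo, 0.428, 0.401 and 0.343 in GFPmed and 0.938, 1.04 and 0.941 in GFPhi samples. On this scale the Runx genes went from a Runx1 excess to near parity, with no overlap between groups. The level of such a ratio depends on the gene lengths used, and its change between groups does not. In the deposited TPM, Runx3 averaged 15.1 and Runx1 6.82 in GFPhi. The ratio of Zbtb7b to Runx3 was 14.2, 13.9 and 21.7 in GFPlo, 8.49, 9.72 and 10.9 in GFPmed and 4.09, 6.42 and 4.06 in GFPhi samples. Zbtb7b remained the more abundant transcript of the pair in all 9 samples. The ratio of Zbtb7b to Runx1 ranged from 3.07 to 3.82 in GFPlo and from 3.82 to 6.66 in GFPhi, where the highest value was that of GFPhi replicate 2. The ratio of Cd4 to Cd8a was 75.7 ± 6.42 (SD, n = 3) in GFPlo, 73.3 ± 12.3 in GFPmed and 147 ± 37.8 in GFPhi samples, and the ratio of Cd8a to Cd8b1 was 0.126 ± 0.0172, 0.148 ± 0.0216 and 0.0974 ± 0.0223, overlapping between GFPlo and GFPhi.

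**Figure D3:**
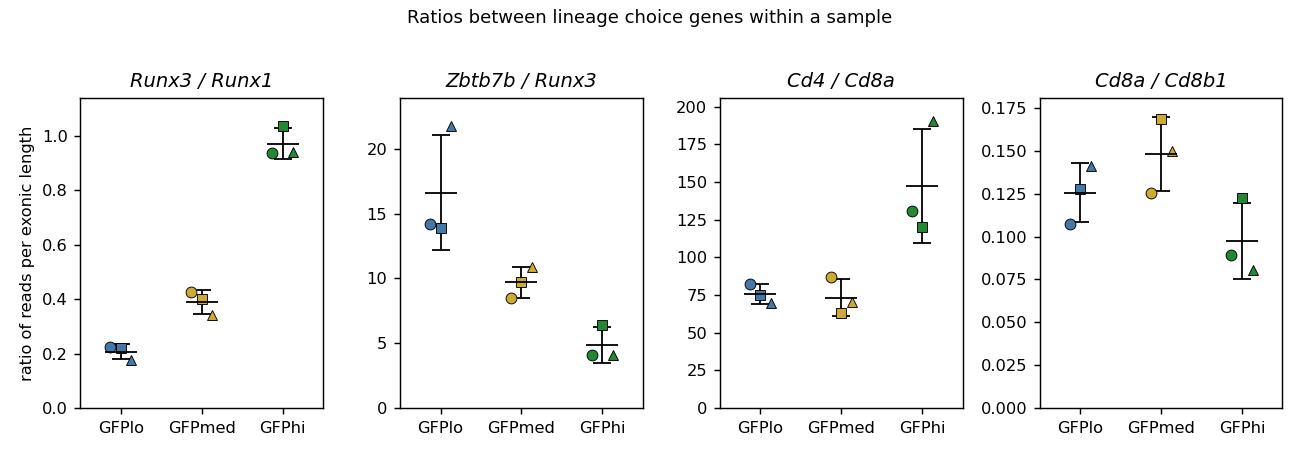
Ratios between lineage choice genes within each sample, from reads per exonic length (vertical axes, each from 0), with a symbol for each replicate and lines for the mean ± SD. Runx3 to Runx1 climbs from a mean of 0.207 in GFPlo to 0.972 in GFPhi, Zbtb7b to Runx3 goes from 16.6 to 4.86, and Cd8a to Cd8b1 overlaps between GFPlo and GFPhi.

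Other factors of the CD4 lineage network were read from a list of 12 genes, all of them tested. Of these, 6 fell between GFPlo and GFPhi, 0 rose and 6 did not pass, against 1.51% of all genes that fell and 2.38% that rose, with a median log2 fold change of -0.37 against -0.09 over all genes. Satb1, a chromatin organiser needed for lineage-specifying genes, had 760 ± 15.8 TPM in GFPlo, had 293 ± 17.2 TPM in GFPhi (SD, n = 3) and fell by 1.37 (adjusted p = 7.6e-05 from limma). Lef1, a TCF-family factor upstream of Zbtb7b, fell by 0.88 (adjusted p = 0.00188 from limma). Gata3, which directs CD4 commitment, fell by 0.74 (adjusted p = 0.0149 from limma), as did Hivep3 by 0.74 (0.0253), Bcl11b, a T cell identity factor, by 0.54 (0.0202), and Patz1, a BTB zinc-finger factor of the same class as ThPOK, by 0.50 (0.0154). Tcf7, the close relative of Lef1, differed by -0.13 (adjusted p = 0.656 from limma). Tcf3 went the other way, with a log2 difference of 0.40 that did not pass (adjusted p = 0.112 from limma) and no overlap of GFPhi and GFPlo. Without GFPlo replicate 3, and with limma-voom on library totals, 1 gene of the list rose. Counts of falling genes depended on the fit, with 1 under median-of-ratios scaling or without replicate 1 of every group, 2 with these 2 groups alone, without GFPlo replicate 3 or without GFPhi replicate 3, and 3 without GFPlo replicate 2. Between GFPmed and GFPhi, Lef1, Satb1 and Patz1 fell, 3 of 12 against 0.609% of all genes.

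RUNX proteins repress with partners, and a list of 16 such partners and Cd4 silencer cofactors, of which 15 were tested, held 0 genes that passed between GFPhi and GFPlo in limma, against 3.89% of all genes. At an unadjusted p under 0.05 there was 1, Hdac1, a histone deacetylase gene, with a log2 difference of 0.21 (adjusted p = 0.174 from limma), and limma-voom with library totals called 1. The median was -0.05. Runx2, the remaining RUNX gene, was under the filter, at a mean of 0.323 TPM in GFPlo and 0.131 TPM in GFPhi.

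Among 15 genes of the CD8 and cytotoxic programme, 10 were tested and 3 rose between GFPlo and GFPhi and 0 fell, against 2.38% and 1.51% of all genes, with a median of 0.54. Il2rb, which encodes the beta chain shared by the IL-2 and IL-15 receptors, rose from 5.74 ± 0.0607 TPM (SD, n = 3) to 84.3 ± 13.3 TPM, by 3.65 on the log2 scale (adjusted p = 4.56e-05 from limma). Xcl1, a chemokine gene, rose by 2.26 (adjusted p = 0.00587 from limma) from 0.410 ± 0.548 TPM to 5.51 ± 1.10 TPM on 0 to 55 reads, and Ctsw, a cathepsin gene, by 1.00 (0.000624). These 3 also rose between GFPmed and GFPhi, where 0.899% of all genes rose. Outside GFPhi, Xcl1 had 0.197, 0 and 1.03 TPM in GFPlo and 0.512, 0.332 and 0.589 TPM in GFPmed. It reached the filter only through its GFPhi samples, so its place among the genes that rose, and in the median, partly follows from the filter. Eomes, a T-box factor of CD8 T cells, had a log2 difference of 1.02 (adjusted p = 0.0961 from limma) and Prf1, which encodes perforin, of -0.90 (0.108). Gzma, Tbx21, Klrd1 and Cst7 were under the filter in these cells, and Nkg7 differed by 0.08 (adjusted p = 0.967 from limma). Gzmb, Crtam and Itgae had log2 differences of -0.30, -0.47 and -0.11, and Ccl5 of 1.08, and none of them passed. Il2ra, counted below among the regulatory T cell markers, rose by 2.68 (adjusted p = 0.000491 from limma). The part of such cells in the Il2rb value was not tested.

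Of 8 genes of the helper programme, 3 rose between GFPlo and GFPhi and 0 fell, against 2.38% and 1.51% of all genes, with a median of 0.40. Il21, a cytokine gene, rose by 1.21 (adjusted p = 0.0122 from limma), Izumo1r, which encodes folate receptor 4, by 0.58 (0.0131), and Icos, a co-stimulatory receptor gene, by 0.45 (0.0149). Cd40lg, the CD40 ligand gene that marks helper cells, had a log2 difference of -0.27 (adjusted p = 0.232 from limma). All 3 calls were lost with median-of-ratios scaling, with these 2 groups alone, without GFPlo replicate 2 and without replicate 1 of every group. Without the trend in eBayes and without GFPhi replicate 3, 1 gene passed.

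Cytokine signals, which are known to raise Runx3 in cells that lose receptor signals, were read from 13 genes, of which 5 rose, 1 fell and 7 did not pass between GFPlo and GFPhi, with a median of 0.36. Of all genes, 2.38% rose and 1.51% fell. Cish, a target of STAT5, rose by 1.81 (adjusted p = 0.000806 from limma), Stat5a by 1.12 (0.000337), Jak3, the kinase of the common gamma chain, by 1.07 (0.0049), Il6st, which encodes gp130, by 0.85 (0.00258), and Il27ra by 0.80 (0.00361). Il7r, the receptor of the cytokine most tied to CD8 specification, fell by 1.81 (adjusted p = 6.49e-05 from limma), from 199.9 ± 17.9 TPM (SD, n = 3) to 56.1 ± 3.42 TPM. Il2rg, its partner chain, differed by -0.21 (adjusted p = 0.428 from limma), and Socs1, a feedback inhibitor, by -0.45 (0.268). The list thus held moves in both directions at the level of receptor and signalling genes. With median-of-ratios scaling 2 of the 13 rose, and 3 did without replicate 1 of every group. Between GFPmed and GFPlo, 0 genes passed in any of these 5 lists in limma, against 0.0749% of all genes. An unadjusted p under 0.05 was found for 2 of 12 genes of the CD4 network, 0 of 15 RUNX partners, 1 of 10 CD8, 3 of 8 helper and 7 of 13 cytokine genes, against 4.67% of all genes.

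**Figure D4:**
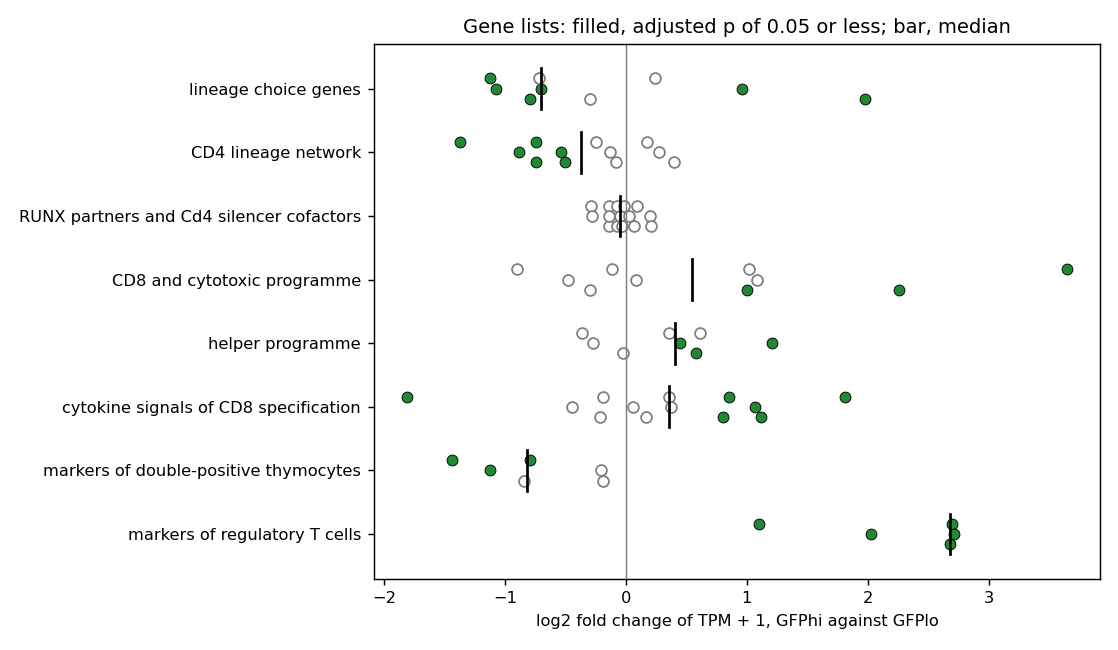
Log2 fold change of TPM + 1 between GFPhi and GFPlo (horizontal axis) for each tested gene of the 9 lineage choice genes, 5 related lists and 2 lists of cell markers, filled where the adjusted p was at most 0.05, with a bar at each median. The CD4 network has 6 falling genes and 0 rising, the RUNX partners lie around 0, Cd8a and Cd8b1 also count among the double-positive markers, and the 5 regulatory T cell markers all rose.

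Some markers of other cells moved with the sort. Of double-positive thymocytes, 7 markers were in the table and their summed level, Cd8a and Cd8b1 included, was 58.8 to 61.8 TPM in GFPlo, then 50.5 to 53.5 TPM in GFPmed and 27.9 to 36.0 TPM in GFPhi samples. Of the 6 tested, Dntt, which encodes the terminal transferase of receptor rearrangement, fell by 1.43 (adjusted p = 0.0026 from limma) besides the 2 CD8 genes, and Rag1 differed by -0.20 (adjusted p = 0.872 from limma) at 6.10 ± 2.05 TPM in GFPlo and 5.25 ± 2.27 TPM in GFPhi (SD, n = 3). Of 8 markers of CD8 T cells, summing to 56.3 to 61.7 TPM in GFPlo and 42.4 to 54.4 TPM in GFPhi, the only 2 to pass were Cd8a and Cd8b1, which are part of this sum. Of the others, Eomes, Nkg7, Ccl5 and Klrd1 had higher mean TPM in GFPhi than in GFPlo, and Itgae and Gzmm had lower mean TPM. All 5 regulatory T cell markers rose, against 2.38% of all genes, from a sum of 172 to 194 TPM in GFPlo to 732 to 846 TPM in GFPhi, Foxp3 among them from 6.75 ± 0.249 to 15.7 ± 2.38 TPM, although cells with surface CD25 had been gated out. The 4 thymic epithelium markers in the table summed to 3.64 to 8.34 TPM in GFPlo and 9.65 to 12.7 TPM in GFPhi, and Epcam alone passed, rising by 1.38 (adjusted p = 0.012 from limma). Krt8 differed by 0.19 (adjusted p = 0.93 from limma) and Psmb11 by -0.02 (0.991). Foxn1 was under the filter, at a mean of 0.703 TPM in GFPlo and 0.498 TPM in GFPhi. Sums of NKT and gamma-delta T cell, B cell, myeloid and erythroid markers overlapped between GFPlo and GFPhi, and no marker was at 0 in all samples. Within the NKT and gamma-delta list, Sox13 fell by 1.88 (adjusted p = 0.0135 from limma). Trgc2 of the same list had a log2 difference of 1.73, with no overlap of the 2 groups, and did not pass (adjusted p = 0.073 from limma). The part of these cells in the values of the 9 genes was not tested.

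For each gene, the 3 genes of at least 5 mean TPM with the most similar pattern were found by Pearson's r of log2(TPM + 1) over the 9 samples, among 17375 genes. These r values describe samples that share their sort groups, and the best of so many genes is high by selection. Runx1 was most like Dntt (r = 0.995), followed by Mbp and 4932438A13Rik. Myb was most like Tgif1 (r = 0.995), Arhgap20 and Prkcd. Runx3 was most like Foxm1, a cell cycle factor gene (r = 0.982), Uap1 and Arhgef3. Zbtb7b was most like Septin9 (r = 0.991), Pdia4 and Timm8a1, and Cd4 like Stard3 (r = 0.993), Erp29 and Ranbp6. Cd8b1 was most like Plekho2 (r = 0.989), Lztfl1 and Tbl1xr1, and Cd8a like 4930417O13Rik (r = 0.979), Cltb and Pgk1. The neighbouring CD8 genes shared none of these first 3, and genes of lower rank were not compared. For Tox these were Gm13256 (r = 0.990), Ywhae and Tmem70, and for Cbfb Dut (r = 0.977), Ehmt1 and Itgb2. Between Cd8a and Cd8b1 r was 0.900 over the 9 samples and 0.00537 for their deviations from the group means, and between Runx1 and Runx3 it was -0.894 over the samples and 0.513 for the deviations.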

How the data were processed

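Bulk RNA-seq was analysed in 9 samples of sorted SP4 thymocytes, grouped by their labels. RNA was amplified with SMART-seq and made into Nextera XT libraries, which keep no strand. According to the sources, the authors trimmed reads, aligned them with STAR 2.7.11b to GRCm38 (mm10) with GENCODE genes, removed identical duplicates and counted reads per gene; which strand setting was used is not given in the sources used here. The deposited values are TPM per sample and the authors' mean normalized signal of each group (counts divided by size factors). The authors' log2 fold changes, adjusted p-value columns and call score columns from DESeq2 1.34.0 were deposited as well and were not used. Of the sample columns, 0 were left unused.

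The TPM and group means determined the reads of each sample for 41578 of 41978 genes, with 100% of the values checked within 0.02 of a whole number; 400 genes were not solved. Totals were 7465552 to 14943774 reads (median 9426281). PCR without molecular identifiers means that counts understate the error. The gene lengths that the TPM imply were within 1% of the mean transcript span for 97.3% of 20121 protein-coding genes.

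The 30693 genes that reached 1 TPM in 3 or more samples entered a test with limma 3.58.1 (R 4.3.3) on log2(TPM + 1), in a single model over 9 samples with a trend in eBayes and Benjamini-Hochberg adjustment. Fold changes on this scale understate the change of low genes. On simulated reads, 200 of 30123 genes (mean reads of at least 100) were changed between GFPhi and GFPlo. The test recovered 193 of them, 18 unchanged genes passed, and 10 passed when none was changed. The simulated log2 changes were all larger than the GFPhi against GFPlo differences of the 9 genes other than Myb. Samples were simulated as independent, with the same spread beyond counting error for every gene. Recovery at the log2 difference of each of the 9 genes was not tested, so the 193 gives no sensitivity for genes other than Myb. Trends were tested by exact permutation of the 9 samples. Named genes were the 9 genes, genes of the lists that passed in any comparison (the 6 largest changes where more passed), the 3 most similar genes of each, and Nr4a1; other list genes named with values were chosen after their values were seen. The members and lists were chosen with earlier results of these data known. Nothing in the labels ties replicates to single animals, so p-values measure the spread between these samples. Alternatives were quantile normalization, median-of-ratios scaling, a filter at 5 TPM or none, 0.1 as the pseudocount, fits of 2 groups, without trend or with the replicate block, samples left out, and limma-voom on reads scaled by library totals or by size factors. The fold limit of 1 is the study's own threshold, which it applied together with the limit on the adjusted p. The main count of 6 of 9 genes leaves the fold limit out. Its use as an alternative in the counts was added after seeing the data.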

Additional observations from a re-analysis of the deposited data

How the results depend on the processing

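The direction of the GFPhi against GFPlo and GFPhi against GFPmed differences of all 9 genes held under all 20 alternatives. Between GFPhi and GFPlo, 144 of 180 gene and alternative pairs kept their side of the threshold, 27 lost a call and 9 gained one; between GFPhi and GFPmed these numbers were 133, 43 and 4. Against 2 higher and 4 lower genes in GFPhi than in GFPlo, a log2 limit of 1 left 1 and 2, these 2 groups alone 1 and 1, and median-of-ratios scaling 1 lower; leaving samples out gave 1 to 2 higher and 0 to 5 lower. Against 1 higher and 3 lower in GFPhi than in GFPmed, the lower count was 1 with the log2 limit, 0 with median-of-ratios scaling, quantile normalization or 2 groups, and 6 with limma-voom and library totals; leaving samples out gave 0 to 1 higher and 0 to 2 lower. limma-voom and library totals called 1 lower gene between GFPmed and GFPlo.

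The replicate numbers were not taken to pair the samples. The labels number biological replicates and do not say whether samples of the same number share a mouse or a sort. Deviations from the group means correlated at 0.0123 to 0.225 (mean 0.0609) in the 9 pairs of same-numbered samples, with 1 over 0.1, and at -0.0305 on average in the other 18. All 9 were above 0, but GFPlo replicate 3 correlated best with GFPhi replicate 2 (0.148). Fitting the replicate block left 0 of the 9 genes lower in GFPhi than in GFPmed and kept their 6 calls between GFPhi and GFPlo, and the Cd8a trend had an exact permutation p of 0.0556. Over all genes, the replicate block gave 286 calls between GFPhi and GFPmed, 5 between GFPmed and GFPlo and 0 differences of steps.

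Over all genes, the 1194 calls between GFPhi and GFPlo became 511 with the log2 limit, 413 with median-of-ratios scaling, 551 with 2 groups, 2192 with limma-voom and library totals, and 250 to 930 with samples left out. The 463 between GFPhi and GFPmed became 212, 104, 218 and 1493 in the same order, and 21 to 381. The 23 between GFPmed and GFPlo became 38 with a pseudocount of 0.1, 5 with median-of-ratios scaling, 11 with 2 groups, 8 without the trend and 77 with limma-voom and library totals, and 0 to 23. The 6 differences of steps became 15 with a pseudocount of 0.1, 12 with quantile normalization, 104 and 13 with limma-voom on library totals and size factors, and 0 to 7.

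Signs changed where values were near 0. The Cd8a difference of 0.01 between GFPmed and GFPlo turned to -0.0614 with limma-voom and library totals, and ranged from -0.10 to 0.11 with samples left out, below 0 without GFPlo replicate 1, GFPmed replicate 2 or GFPmed replicate 3. The Runx3 difference of steps of -0.05 ranged from -0.27 to 0.15 with samples left out, above 0 without GFPlo replicate 3, GFPmed replicate 1 or replicate 1. The trend missed 0.05 for Cbfb, Cd4 and Zbtb7b with median-of-ratios scaling (exact permutation p = 0.0964, 0.264 and 0.0607), for Cbfb with quantile normalization (0.0857) and for Cd8a without replicate 1 (0.0889). The median of all genes between GFPhi and GFPlo was -0.09, with a range from -0.16 without GFPlo replicate 3 or GFPhi replicate 1 to -0.00283 without GFPlo replicate 1. It was -0.11 with a pseudocount of 0.1, -0.0202 with median-of-ratios scaling, -0.00746 with quantile normalization and -0.00536 without GFPhi replicate 2. Cd8a, with 49 to 184 reads, is the gene most limited by depth. The causes of these changes were not tested.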
